A study of Mus musculus with 6 samples.

Results

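The genes examined here encode the constitutive proteasome, the protease that degrades ubiquitin-tagged proteins in every nucleated cell. They were found in the deposited gene table by symbol, as rows named Psma, Psmb, Psmc or Psmd followed by a number. The 3 immunoproteasome subunits Psmb8, Psmb9 and Psmb10 and rows with fewer than 60 reads over the 6 libraries were left out. Of 55401 rows, 39 matched the symbol pattern and 35 remained. Psmb11, a thymus subunit, was the 1 row below the count minimum, with 0 counts, and the members nearest above it were Psma8 with 247 counts and Psmd10 with 2538. The 35 members comprise 15 genes of the core particle, 17 of the regulatory particle, and 3 genes (Psmd5, Psmd9 and Psmd10) whose products are assembly chaperones of the regulatory particle and not subunits of the finished complex.

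RNA was sequenced from mouse cells labelled bone marrow stromal/stem cells. There were 3 libraries labelled WT and 3 labelled Nrf2 knockout, all from cells grown in DMEM with 10% fetal bovine serum. The age, sex and strain of the mice and the way the knockout allele was made were not stated. Nothing says that the libraries of a genotype are separate animals or cultures, and the 3 knockout columns share a middle 1 of unstated meaning, so repeats of 1 source are possible. The p-values cover only library-to-library spread, part of which can be technical. Nfe2l2, the gene that encodes NRF2, had 3082 to 3628 counts per WT library and 118 to 149 per knockout library, lower in each knockout library than in any WT library.

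The proteasome core is a barrel of stacked rings. The outer rings hold the alpha subunits and gate the entrance, and the inner rings hold the beta subunits, of which Psmb5, Psmb6 and Psmb7 carry the active sites. The regulatory particle caps the barrel: a ring of ATPases (the Psmc genes) unfolds substrates, and the non-ATPase subunits (most Psmd genes) bind ubiquitin, remove it and clamp the cap to the core. NRF2 is known to raise proteasome genes after oxidative stress, with Psmb5 among its described targets in mouse, and the related factor NRF1, encoded by Nfe2l1, raises the whole set when proteasome activity is blocked.

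The promoters of Psmb5 and Psmb6 are shown because the estimates of these 2 catalytic genes had opposite signs and both promoters hold the core letters of the antioxidant response element, the DNA motif that NRF2 binds. The stretches come from RefSeq (GRCm38.p6) and are written along the gene's own strand, ending at its start or, for Psmb5, where the deposited annotation already places the gene. Psmb5 covers chr14:54618023-54618245 on the minus strand and Psmb6 covers chr11:70525107-70525356 on the plus strand. Capitals mark the motif TGACNNNGC.
Psmb5: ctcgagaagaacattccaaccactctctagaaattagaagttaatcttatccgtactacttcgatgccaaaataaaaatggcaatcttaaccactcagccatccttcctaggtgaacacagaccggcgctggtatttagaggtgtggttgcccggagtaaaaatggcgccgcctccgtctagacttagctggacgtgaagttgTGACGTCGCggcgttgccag
Psmb6: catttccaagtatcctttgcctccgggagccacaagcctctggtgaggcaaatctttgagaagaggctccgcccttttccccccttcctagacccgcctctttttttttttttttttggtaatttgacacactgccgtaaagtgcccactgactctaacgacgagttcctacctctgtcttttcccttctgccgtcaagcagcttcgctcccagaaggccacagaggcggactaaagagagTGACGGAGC
The match in Psmb5 lies from -47 to -39 relative to the RefSeq start, and that in Psmb6 from -9 to -1. RefSeq promoters were found for 28 of the 35 members. The motif, searched on both strands in windows of 300 bases (250 before the start and 50 from it), was present in 5 of their 30 promoters, those of Psmb5, Psmb6, Psmd9, Psmd12 and Psmc6. This is 16.7% of member promoters, against 12.4% of 32851 promoters of all genes. The ETS core CCGGAAG was present in 36.7% of the member promoters and in 8.86% of all promoters. Its 10 genes were Psma6, Psmc1, Psmc2, Psmc6, Psmd2, Psmd4, Psmd6, Psmd11, Psmd12 and Psmd13. The CCAAT box was present in 36.7% of the member promoters and in 37.4% of all promoters. These matches describe the letters only.

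The libraries held 18381114 to 21323839 counts, and the members together took 0.398% to 0.418% of the counts in WT libraries and 0.410% to 0.435% in knockout libraries. The libraries were checked against markers of the labelled cells and of others. A list of 20 stromal and matrix markers summed to 5835, 18104 and 28068 CPM (counts scaled to the library total) in WT replicates 1, 2 and 3 but to only 363 to 413 CPM in knockout, with 17 of 18 tested genes lower. A list of 18 macrophage markers summed to 24564 to 32202 CPM in WT and 29464 to 31821 CPM in knockout. Lyz2 was the most abundant gene of that list, at 11688 to 16854 CPM scaled with TMM factors. Of its 17 tested genes 6 rose and 1 fell, with a median log2 fold change of 0.46. Over all tested genes 14.1% rose and 18.7% fell. Mrc1 rose 5.60-fold (edgeR adjusted p = 4.0e-05). Marco, the gene that fell, stood at 1.53% of WT (edgeR adjusted p = 0.00095). The estimates were positive for 14 of the 17, and negative but not called for Lyz2 (-0.30) and Itgam (-0.27). A list of 10 proliferation genes summed to 1244 to 1470 CPM in WT and 2152 to 2326 CPM in knockout. A list of 6 neutrophil genes summed to 16.7 to 92.7 CPM in WT and 241 to 274 CPM in knockout, with 6 of 6 higher. No gene of these lists was at 0 over the libraries of a genotype. In bulk RNA, fewer cells of a type and less RNA per cell cannot be told apart, and the part that this difference in markers plays in the proteasome values was not tested.

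Most proteasome genes were near their WT level in the knockout. In edgeR's quasi-likelihood test across 13184 genes, with Benjamini-Hochberg adjustment, 7 of the 35 members passed an adjusted p of 0.05, against 32.9% of all tested genes. Psmb6, Psma1, Psmd12 and Psmd13 rose (4 of 35, background 14.1%), and Psmd5, Psmd7 and Psmd11 fell (3 of 35, background 18.7%). The median log2 fold change, knockout over WT, was 0.072 over the members and -0.005 over all tested genes. Only Psmb6 had an estimated change of at least 1.5-fold (1 of 35), which 28.2% of all tested genes reached. An unadjusted p under 0.05 was found for 11 members, against 44.4% of all tested genes. In CPM scaled with TMM factors the 2 genotypes did not overlap in 17 of the 35 members, where 50.9% of all tested genes did not overlap. Of these, 11 members were higher (background 24.9%) and 6 lower (background 25.9%). Psma4, Psmd6 and Psma8, counted here as higher, overlapped in the deposited FPKM.

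**Figure D1:**
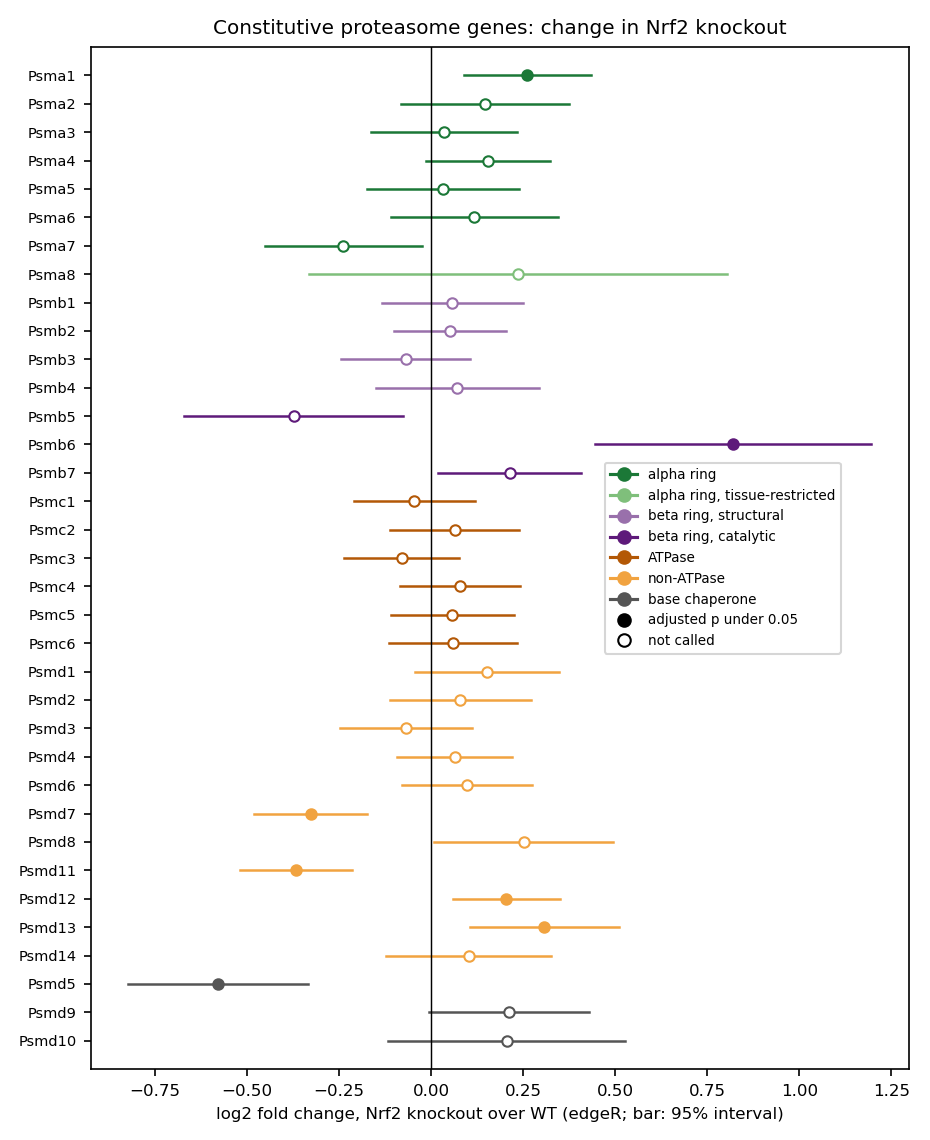
Log2 fold change, Nrf2 knockout over WT, for the 35 genes, ordered by role, with points for the edgeR estimate and bars for its 95% interval; filled points passed an adjusted p of 0.05. Psmb6 lies farthest to the right at 0.82 and Psmd5 farthest to the left at -0.58, while the 4 structural beta genes and the 6 ATPases lie between -0.08 and 0.08.

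The count of calls depended on the libraries kept, most of all for the genes that rose. It was 7 higher and 3 lower without WT replicate 1, 1 and 3 without WT replicate 2, and 1 and 4 without WT replicate 3. Without knockout replicates 1, 2 and 3 it was 1 and 2, 1 and 4, and 1 and 2. Over all tested genes the number called higher moved too. It ran from 875 of 13741 without knockout replicate 1 to 3188 of 13813 without WT replicate 1. The number called lower ran from 1616 to 3713. With all libraries these numbers were 1865 and 2468 of 13184. With libraries scaled to their totals the members split into 2 higher and 4 lower, and scaling to the macrophage list gave 1 and 3. Over all tested genes these scalings gave 1691 higher and 2405 lower, and 723 and 1897. Psmb6, Psmd11 and Psmd5 passed under each of the 17 alternatives tried.

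Of the 3 catalytic beta genes, Psmb6 rose and the other 2 were not called. Psmb6 encodes the subunit with caspase-like activity and lies on chr11 from 70525367 to 70527858 on the plus strand (mm10; ENSMUSG00000018286). Its deposited FPKM (fragments per kilobase of exon, scaled to library size) was 83.0, 77.0 and 63.6 in WT replicates 1 to 3, and 118, 145 and 121 in knockout replicates 1 to 3. Every knockout library stood above every WT library, by a gap larger than the range within either genotype. Psmb6 rose 1.77-fold, with a log2 fold change of 0.82 (SE 0.16; edgeR adjusted p = 0.0088). Its log2 fold change stayed between 0.66 and 0.97 over the alternatives. An exact permutation test of 3 against 3 libraries can give no two-sided p under 0.1.

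Psmb5 encodes the subunit with chymotrypsin-like activity, the target of bortezomib, and lies on chr14 from 54614119 to 54618022 on the minus strand (ENSMUSG00000022193). Its FPKM was 234, 214 and 200.2 in WT and 149, 179 and 158 in knockout. All knockout libraries stood below all WT libraries, but the spread within each genotype was wide. The log2 fold change was -0.37 (95% interval -0.67 to -0.08), a knockout level of 77.2% of WT, and edgeR did not call it (adjusted p = 0.060). DESeq2 called it (adjusted p = 0.036), as did limma on log2(FPKM + 1) (adjusted p = 0.025) and edgeR without WT replicate 3 (adjusted p = 0.026). It was called lower under 7 of the 17 alternatives, and its adjusted p over them ran from 0.013 to 0.20.

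Psmb7, which carries the trypsin-like site, had 24.9, 27.0 and 25.6 FPKM in WT and 28.8, 30.8 and 27.3 in knockout. The groups did not overlap, by a small margin, and the log2 fold change of 0.21 was not called (edgeR adjusted p = 0.087; 95% interval 0.02 to 0.41). It passed without WT replicate 1 (adjusted p = 0.042). Exons of Psmb7 overlap those of Nek6 on the other strand over 11.8% of their length. The sources used here do not say whether strand was used in counting.

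The balance between Psmb6 and Psmb5 differed in every library. The ratio of Psmb6 to Psmb5 FPKM was 0.355, 0.360 and 0.318 in WT and 0.795, 0.810 and 0.765 in knockout. A ratio within a library does not depend on how libraries are scaled. Its mean was 0.344 ± 0.023 in WT and 0.790 ± 0.023 in knockout (SD, n = 3 each). The pair was chosen after its values were seen, so the ratio is given without a test. Summed over Psmb5, Psmb6 and Psmb7, the catalytic genes stood at 316 ± 26.1 FPKM in WT and 319 ± 31.4 FPKM in knockout (SD, n = 3 each), and the genotypes overlapped. That overlap depended on the length used. Per kilobase of 1 reference transcript the same sum was 502, 474 and 425 CPM in WT and 511, 610 and 522 CPM in knockout, higher in each knockout library than in any WT library.

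**Figure D2:**
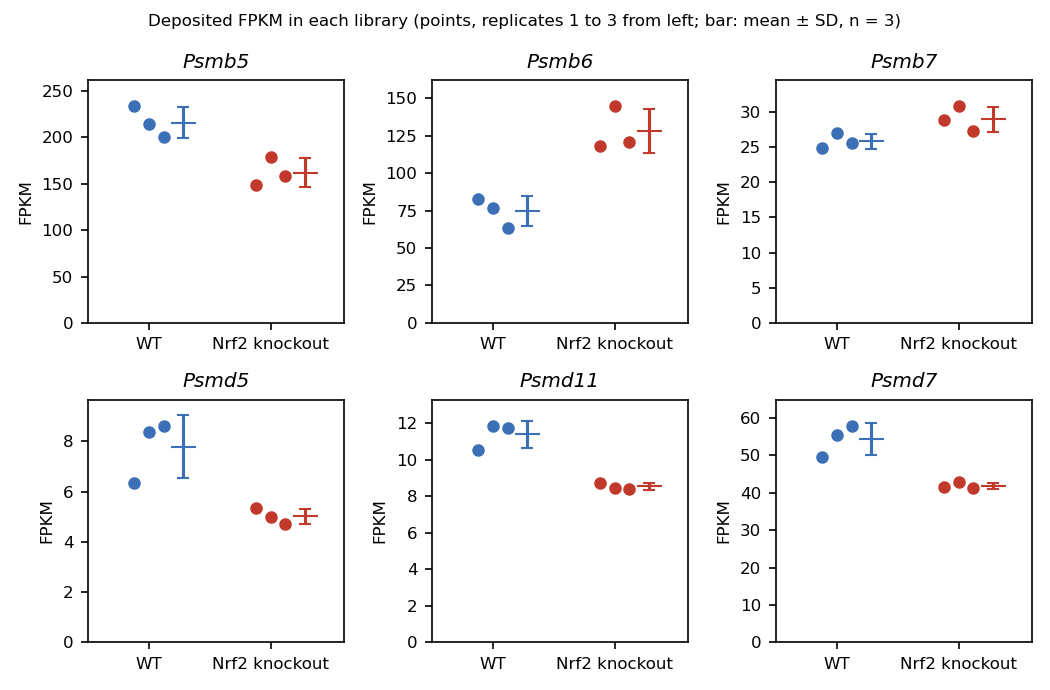
Deposited FPKM of 3 catalytic core genes (top) and of the 3 genes that fell (bottom) in each library, with mean ± SD over 3 libraries beside the points. The lowest knockout value of Psmb6 is 118 and its highest WT value 83.0, while Psmb5, Psmd5, Psmd11 and Psmd7 are lower in each knockout library than in any WT library.

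The other core genes differed less. The 4 structural beta genes Psmb1, Psmb2, Psmb3 and Psmb4 had log2 fold changes from -0.07 to 0.07, and their 95% intervals all lay between -0.24 and 0.29. None was called by edgeR, DESeq2 or limma, and 0 of 4 had an unadjusted p under 0.05 in any of these tools. Of all tested genes edgeR called 32.9%. Psmb2 is an example of how close the libraries were: its FPKM was 77.5, 79.9 and 86.1 in WT and 82.4, 82.0 and 79.5 in knockout.

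Of the 7 alpha ring genes, which form the outer rings, 1 rose and 6 did not pass. Over all tested genes 14.1% rose. Psma1 had 41.1, 44.7 and 42.3 FPKM in WT and 48.4, 50.6 and 49.5 in knockout, without overlap. It rose to 119.9% of its WT level (edgeR adjusted p = 0.032), a call that held without WT replicate 1 (adjusted p = 0.012) but was lost without each of the 5 other libraries (adjusted p from 0.067 to 0.096). Psma7 went the other way, with 39.3, 43.2 and 44.6 FPKM in WT and 33.2, 38.5 and 32.3 in knockout. Its log2 fold change was -0.24 and was not called (adjusted p = 0.084), though it passed without knockout replicate 2 (adjusted p = 0.038). The other alpha ring genes, Psma2 to Psma6, had intervals that included 0. Psma8, a testis form of an alpha subunit, was the lowest member at 0.54 to 0.92 FPKM.

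None of the 6 ATPase genes of the regulatory particle was called, against 32.9% of all tested genes. Psmc1 to Psmc6 had log2 fold changes from -0.08 to 0.08, with 95% intervals between -0.23 and 0.24, and 0 of 6 had an unadjusted p under 0.05 in edgeR, DESeq2 or limma. Psmc5 had 76.0, 74.2 and 77.5 FPKM in WT and 76.7, 76.2 and 76.6 in knockout. Psmc3 was the 1 ATPase gene whose genotypes did not overlap, with a log2 fold change of -0.08. Summed over the 6 genes the FPKM was 302 ± 11.95 in WT and 294 ± 4.50 in knockout (SD, n = 3 each). These intervals exclude a change of 1.5-fold in either direction for each of the 10 ATPase and structural beta genes.

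Among the 11 non-ATPase subunits 2 rose, 2 fell and 7 did not pass, a share called of 36.4% against 32.9% of all tested genes. The genes that passed were Psmd7, Psmd11, Psmd12 and Psmd13, of the lid, the part of the regulatory particle that removes ubiquitin chains, and no difference between lid and base genes was tested. Psmd11, a lid subunit that clamps the regulatory particle to the core, had 10.5, 11.9 and 11.7 FPKM in WT and 8.72, 8.47 and 8.39 in knockout. The knockout libraries lay close together and below every WT library. Psmd11 fell to 77.6% of its WT level, with a log2 fold change of -0.37 (SE 0.06; edgeR adjusted p = 0.0062). Its 2 near copies in the annotation, A730017L22Rik and Gm14048, held 408 and 0 counts against 7642 for Psmd11.

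Psmd7 encodes the lid subunit that pairs with the deubiquitinase encoded by Psmd14. It had 49.7, 55.5 and 58.0 FPKM in WT and 41.6, 42.8 and 41.2 in knockout. The groups did not overlap, and Psmd7 fell to 79.7% of WT (log2 fold change -0.33, SE 0.06; edgeR adjusted p = 0.0097). The call was lost without knockout replicate 1 or 3 (adjusted p = 0.059 in both) and under scaling to the macrophage list (adjusted p = 0.063). Psmd14 itself had 31.1, 32.1 and 29.5 FPKM in WT and 30.3, 34.7 and 31.4 in knockout, overlapping, with a log2 fold change of 0.10 (95% interval -0.12 to 0.33).

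Psmd13 and Psmd12 encode structural lid subunits. Psmd13 had 32.2, 33.3 and 30.3 FPKM in WT and 37.3, 38.8 and 38.8 in knockout, and it rose 1.24-fold (edgeR adjusted p = 0.032). Psmd12 had 30.0, 32.7 and 32.5 FPKM in WT and 35.2, 35.1 and 35.7 in knockout, and it rose 1.15-fold (edgeR adjusted p = 0.042). Neither overlapped between the genotypes. Both calls were lost without each library other than WT replicate 1, with adjusted p up to 0.10 for Psmd13 and 0.13 for Psmd12, and Psmd12 passed under 2 of the 17 alternatives. Exons of Psmd13 overlap those of Sirt3 on the other strand over 10.1% of their length.

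The other lid genes Psmd3, Psmd6, Psmd8 and Psmd14 did not pass, and neither did Psmd1, Psmd2 and Psmd4, which belong to the base with the ATPases. Psmd8 was the highest of them at 106, 101 and 97.0 FPKM in WT and 113, 124 and 113 in knockout, a log2 fold change of 0.25 that edgeR did not call (adjusted p = 0.10). It passed without WT replicate 1 (adjusted p = 0.0088). Psmd2, which like Psmd1 encodes a scaffold subunit of the base, had 89.0 to 90.7 FPKM in WT and 88.4 to 94.9 in knockout. Psmd4, a ubiquitin receptor, had 39.6 to 42.9 FPKM in WT and 41.0 to 43.0 in knockout. Both pairs of ranges overlapped.

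The 3 chaperones that help the ATPase ring assemble did not move together. Psmd5 had 6.36, 8.37 and 8.63 FPKM in WT and 5.33, 5.00 and 4.72 in knockout. Psmd5 fell to 67.0% of WT, with a log2 fold change of -0.58 (SE 0.10; edgeR adjusted p = 0.0066). Over the alternatives the log2 fold change ran from -0.79 to -0.52. Psmd9 and Psmd10 had log2 fold changes of 0.21 and 0.21 and were not called (edgeR adjusted p = 0.12 and 0.28); Psmd9 passed without WT replicate 1. Psmd9 had 4.15, 4.23 and 3.93 FPKM in WT and 4.64, 4.72 and 4.45 in knockout, without overlap.

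By particle, 2 of 15 core genes rose and 0 fell, and 2 of 17 regulatory particle genes rose and 2 fell. The shares over all tested genes were 14.1% higher and 18.7% lower, and no difference between the particles was tested. Psmb5, a core gene, was called lower under 7 of the 17 alternatives. The median log2 fold change was 0.072 in the core and 0.064 in the regulatory particle. These medians were 0.021 and 0.015 with libraries scaled to their totals, and their sign turned with scaling to the macrophage list, to -0.124 and -0.125. The median over all tested genes moved as well, from -0.005 to -0.056 with library totals and to -0.199 with the macrophage list. The summed FPKM of the core was 847 ± 14.4 in WT and 856 ± 60.3 in knockout, and that of the regulatory particle was 786 ± 23.7 and 792 ± 10.9 (SD, n = 3 each). The ratio of the core sum to the regulatory sum was 1.08 ± 0.041 in WT and 1.08 ± 0.061 in knockout (SD, n = 3 each), and the genotypes overlapped in each of these quantities.

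**Figure D3:**
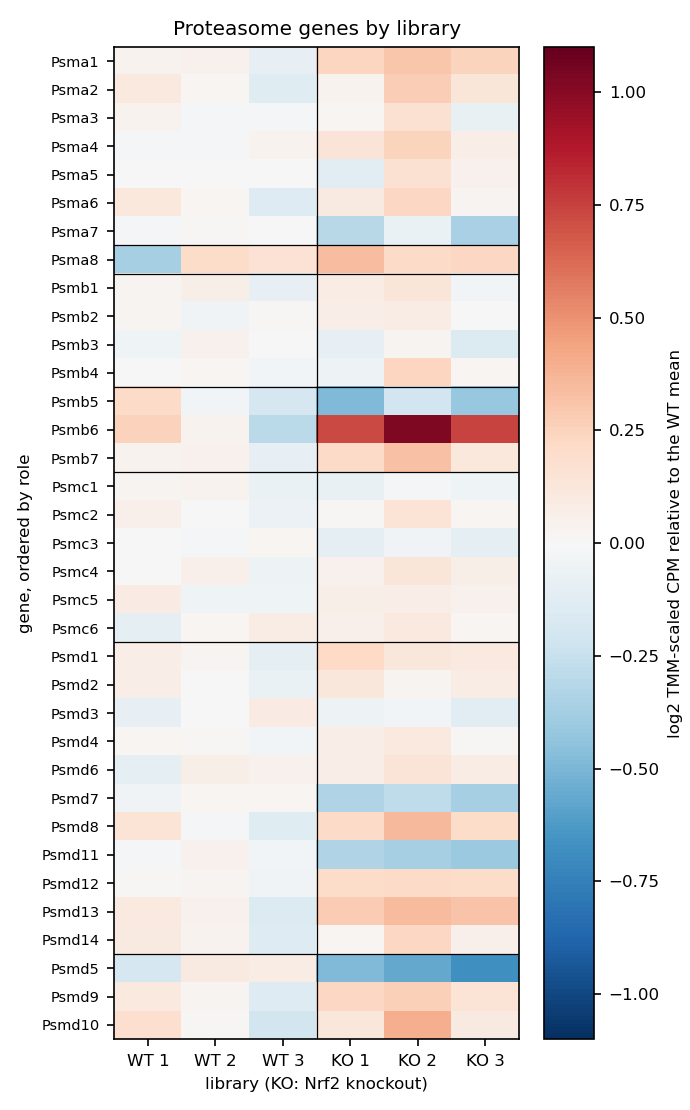
Log2 of the CPM scaled with TMM factors in each library relative to the WT mean, for the 35 genes in order of role (rows) and the 6 libraries (columns). Psmb6 is high and Psmb5, Psmd7, Psmd11 and Psmd5 are low in each knockout library, and most rows are highest among knockout libraries in replicate 2.

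The members varied little within a genotype. Their median coefficient of variation over 3 libraries was 5.25% in WT and 4.96% in knockout, against 13.9% and 7.64% for all tested genes. The comparison was not matched for expression level. The filter on low counts used a minimum of 10, while the members other than Psma8 had at least 2538 counts over the 6 libraries. Psmb6 and Psmb5, at 18.9% and 13.9%, were among the most variable in WT, with Psma8 at 20.6%. Both were lowest in WT replicate 3, the WT library with the highest stromal marker sum. They were highest in WT replicate 1, which had the lowest sum. Of the 35 members, 16, 14 and 5 were highest in WT replicates 1, 2 and 3, against 37.5%, 20.7% and 41.8% of all tested genes. A link to the markers was not tested. One knockout library stood apart: 30 of the 35 members were highest in knockout replicate 2, against 36.9% of all tested genes. The median log2 level of the members relative to the WT mean was 0.15 there, 0.06 and 0.04 in the other knockout libraries, and between -0.05 and 0.03 in WT. Without that library the median log2 fold change of the members was 0.049.

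Levels between genes depend on the length used. The exonic length in the deposited table runs from 899 bases for Psmb5 to 7265 for Psmd1 and joins all annotated exons. When counts were divided instead by the length of 1 GENCODE reference transcript per gene, a choice made after seeing the data, the 7 beta genes spanned 76.1 to 216 CPM per kilobase in WT, a 2.84-fold range, against 8.37-fold in FPKM. The 6 ATPase genes spanned 2.95-fold on that scale and 3.64-fold in FPKM. The 7 alpha ring genes spanned 8.49-fold on that scale and 7.75-fold in FPKM, a wider range. The 14 core genes other than Psma8 spanned 12.88-fold against 17.63-fold in WT, and 18.09-fold against 13.34-fold in knockout. Psmb5 was the highest member in WT on both scales. In knockout Psmb5 was highest in FPKM, and per transcript length Psmb6 was highest at 300.3 ± 34.4, above Psmd8 at 232 ± 11.98 and Psmb5 at 162 ± 15.4 (SD, n = 3 each). Per transcript length the ratio of Psmb6 to Psmb5 was 0.808 ± 0.054 in WT and 1.85 ± 0.054 in knockout (SD, n = 3 each).

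Psma3 had the lowest level of the 14 core genes that are not restricted to testis, at 16.8 ± 0.63 CPM per kilobase of transcript in WT and 16.6 ± 1.29 in knockout (SD, n = 3 each). An annotated copy, Gm13835, matches it over 685 bases with no mismatch and held 5420 counts, against 5740 for Psma3. The level of Psma3 is uncertain, since the assignment of reads that match both was not stated. In all, 10 members had a copy of at least 95% identity over at least 200 bases, with 16.4% and 17.6% of the member's counts for Psma4 and Psma5 and at most 5.85% for Psma2, Psmb3, Psmb5, Psmb6, Psmc1, Psmd2 and Psmd11.

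**Figure D4:**
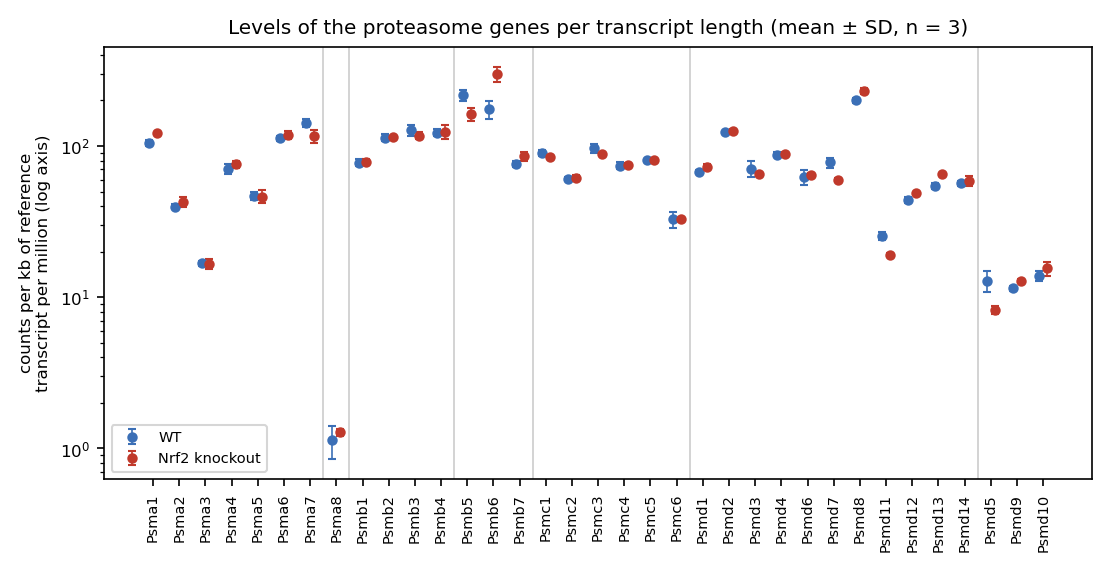
CPM per kilobase of reference transcript (log axis) for the 35 genes, as mean ± SD over 3 libraries, with WT in blue and Nrf2 knockout in red and vertical lines between roles. Most pairs of points coincide, the 3 chaperones and Psma8 lie below the other genes, and Psmb6 is the highest point in knockout.

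Genes of the pathway outside the constitutive complex were read from 6 lists, each of few genes. Among all tested genes 14.1% rose and 18.7% fell, and the counts below stand beside those shares with no test of a list. In the immunoproteasome list 2 of 3 rose: Psmb9, which replaces the Psmb6 product in interferon-treated and immune cells, rose 1.72-fold (edgeR adjusted p = 0.013), and Psmb8, which replaces the Psmb5 product, rose 1.37-fold (edgeR adjusted p = 0.017). A list of 10 interferon-response genes summed to 49.5 to 65.2 CPM in WT and 107 to 144 CPM in knockout, and its part in these values was not tested. The ratio of Psmb9 to Psmb6 FPKM was 0.056 ± 0.002 in WT and 0.055 ± 0.003 in knockout, overlapping, whereas that of Psmb8 to Psmb5 was 0.115 ± 0.006 and 0.205 ± 0.009, without overlap (SD, n = 3 each). The third such ratio, Psmb10 to Psmb7, was 0.914 ± 0.057 in WT and 0.869 ± 0.015 in knockout, overlapping (SD, n = 3 each).

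Of the 5 activator and inhibitor genes, 1 rose and 1 fell. Psme1, a subunit of the activator ring that binds the core ends, had 32.5, 30.9 and 27.7 FPKM in WT and 41.5, 47.6 and 41.8 in knockout, and it rose 1.48-fold (edgeR adjusted p = 0.012). Psme4, a large single-chain activator, had 9.98, 11.3 and 13.8 FPKM in WT and 7.89, 7.4 and 8.23 in knockout, and Psme4 fell to 69.6% of WT (edgeR adjusted p = 0.0068). The median of the list was 0.08.

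Among 11 proteins that bind the proteasome or carry substrates to it, 1 rose and 1 fell, with a median of -0.06. Uchl5, a deubiquitinase of the regulatory particle, had 8.49, 9.22 and 8.59 FPKM in WT and 13.8, 13.6 and 13.9 in knockout. It rose 1.62-fold (log2 fold change 0.70, SE 0.08; edgeR adjusted p = 0.0017). Rad23b, a shuttle for ubiquitinated proteins, had 37.1, 45.5 and 49.5 FPKM in WT and 29.8, 27.9 and 29.5 in knockout, and it fell to 68.5% of WT (edgeR adjusted p = 0.0047).

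The 5 assembly factors Psmg1, Psmg2, Psmg3, Psmg4 and Pomp, which build the core, had a median log2 fold change of 0.04, and 0 of 5 had an unadjusted p under 0.05 in edgeR, DESeq2 or limma. Of 6 genes that control proteasome transcription, Nfe2l2 itself fell and Ngly1 rose. Ngly1 encodes a glycanase that NRF1 needs to become active, and it had 1.40, 1.66 and 1.94 FPKM in WT and 1.95, 2.14 and 2.19 in knockout (1.31-fold, edgeR adjusted p = 0.042). Nfe2l1 had 42.3, 44.6 and 50.9 FPKM in WT and 41.4, 39.3 and 39.2 in knockout, with a log2 fold change of -0.15 (95% interval -0.33 to 0.03). Of 3 ubiquitin genes Ubb, a polyubiquitin gene, rose 1.29-fold (edgeR adjusted p = 0.022), and the other 2 (Rps27a and Uba1) were not called, with log2 fold changes of -0.20 and -0.23. Reads of Rps27a can be shared with gene copies, so its value is uncertain.

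**Figure D5:**
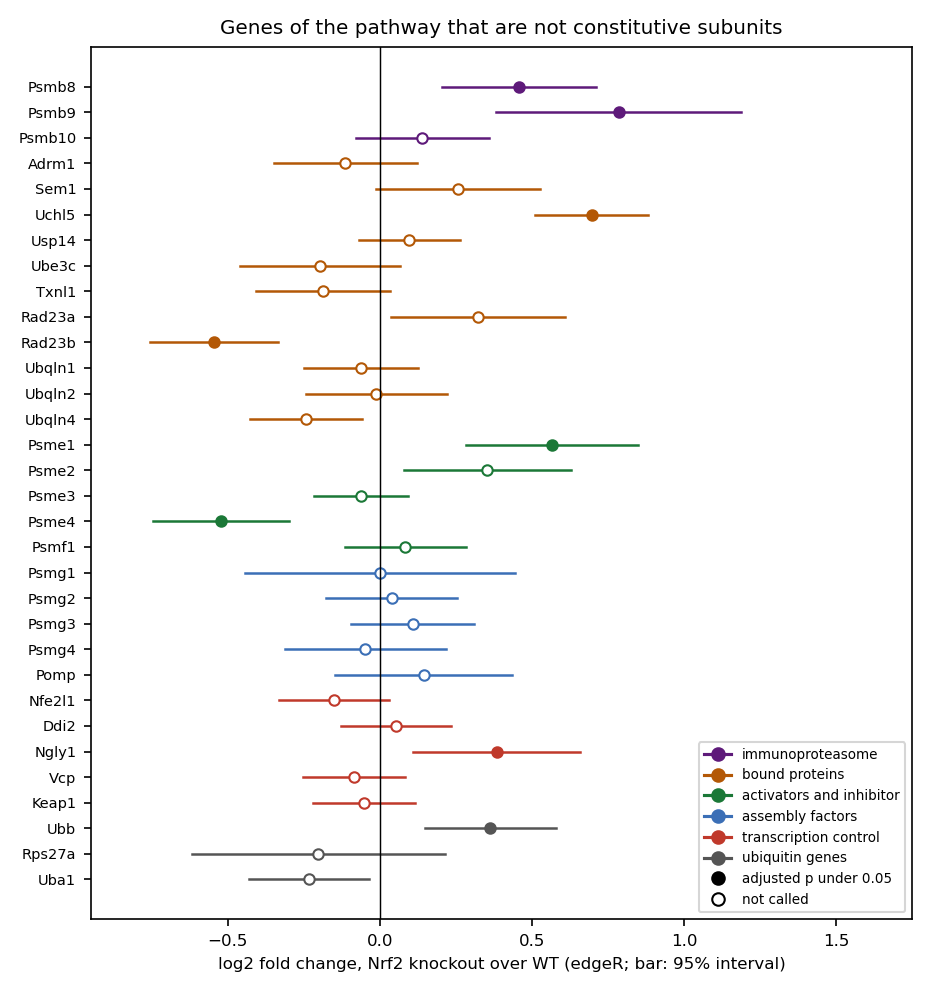
Log2 fold change, Nrf2 knockout over WT, with 95% intervals, for the genes of the 6 pathway lists other than Nfe2l2; filled points passed an edgeR adjusted p of 0.05. Psmb9 at 0.79 and Uchl5 at 0.70 lie farthest to the right and Rad23b at -0.55 and Psme4 at -0.52 farthest to the left, while the assembly factors lie between -0.05 and 0.14.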

How the data were processed

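RNA-seq libraries, 3 WT and 3 Nrf2 knockout, were analysed from 1 deposited table. It holds raw read counts per gene and FPKM values that the authors made; deposited FPKM values match CPM over the column total per kilobase of exonic length within 0.005. Per the submitters' processing notes, the tools were HISAT2 2.0.1, HTSeq 0.6.1 and DESeq2 and the build mm10, with no roles stated. The use of strand was not stated. All 35 members had the same start and end in GENCODE M21.

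The members and lists were chosen with earlier results of these data known. From the ubiquitin list 2 genes are not reported here. All 35 members passed the filter on low counts. Counts were tested across all genes with edgeR 4.0.16 in R 4.3.3 (filterByExpr with a minimum count of 10, TMM factors from 0.954 to 1.07, genotype as the only term, quasi-likelihood test, Benjamini-Hochberg adjustment, call at an adjusted p under 0.05). Standard errors were derived from the F statistic (log2 fold change divided by its root), and 95% intervals use the t quantile of the fit. Overlap between genotypes was read on CPM scaled with TMM factors. Genes shown with every library are those called, the catalytic subunits, and others chosen after their values were seen, such as Psma7, Psmb2, Psmc5, Psmd8, Psmd9 and Psmd14. DESeq2 1.42.0, limma 3.58.1 (trend, mean FPKM of at least 1), other scalings, filters, a pseudocount of 0.1 and leaving out each library were alternatives. Near copies were found with BLAST 2.17.0 in GENCODE transcripts. Pairs of libraries within a genotype gave chi-square values of 3.24 to 161.57 times their degrees of freedom, so none was counted as a repeat deposit. The scripts were tested on simulated counts.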

Additional observations from a re-analysis of the deposited data

How the results depend on the processing

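Under the 17 alternatives Psmb6, Psmd11 and Psmd5 kept their direction and their call. Psmd7 lost its call in 3, Psmd13 in 8, Psma1 in 11 and Psmd12 in 15, with no change of direction, and the causes were not tested. The number of members called higher was 4; it was 2 with library totals, with limma on log2(FPKM + 0.1) and with no filter on low counts, and 1 with libraries scaled to the macrophage list, with the replicate block and at an adjusted p under 0.01. Leaving out 1 library gave 1 to 7, while the number called higher over all tested genes ran from 875 to 3188. The number of members called lower was 3. It was 5 among the 33 members with a mean FPKM of at least 5, where Psmb5 and Psma7 also passed. The median log2 fold changes of all members, core and regulatory particle were 0.072, 0.072 and 0.064. They were 0.021, 0.021 and 0.015 with library totals, 0.017, 0.014 and 0.016 with limma on log2(FPKM + 1), 0.017, 0.014 and 0.016 with limma on log2(FPKM + 0.1), and 0.014, 0.015 and 0.014 at a mean FPKM of at least 5. Scaled to the macrophage list they were -0.124, -0.124 and -0.125, and the median over the 13184 genes was then -0.199. That median over all tested genes was -0.005 in the main fit and -0.056 with library totals. It was -0.016 and -0.018 with the limma fits, and 0.003 at a mean FPKM of at least 5. Leaving out 1 library gave core medians from 0.045 to 0.134. Of the 24 members with an unadjusted p of at least 0.05, 17 changed sign when scaled to the macrophage list, and 1, Psmd9, was called in any alternative, without WT replicate 1. The labels do not say whether the numbers pair the samples. Deviations of same-numbered libraries correlated at 0.203, 0.136 and 0.078 over genes, and 5 of 6 libraries correlated best with their own number. Deviations from a mean of 3 libraries depend on each other, and no chance level was computed. These values therefore cannot show whether the numbers pair the samples. With the replicate block 1 member was called higher and 3 lower.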
